A study of Mus musculus with 6 samples.

Results

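The CD11c+CD206- cells of mouse sublingual mucosa, called Fr1, were compared with the F4/80+CD206hi cells of the same tissue, called Fr3. The comparison used the 4 arrays of these fractions, and all 6 arrays of the series served to estimate the spread. It took every gene with a probe well above background on both arrays of Fr1 or on both arrays of Fr3. This gave 19153 genes out of 37074 gene names on the array. Both fractions were sorted from BALB/c mice, an inbred laboratory strain, which had received 2 paintings of that mucosa with FITC, a contact sensitiser that fluoresces. No fraction came from unpainted mice, and each fraction has 2 arrays, which stem from separate experiments. The age of the mice and the number pooled for a sort are not given in the sources used here. The labels name the tissue as sublingual mucosa, while the protocol speaks of the dorsal side of the tongue. Tissue was digested with collagenase and DNase before sorting, and the RNA was amplified with a kit for small inputs.

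CD206 is the mannose receptor, an endocytic lectin of many tissue macrophages, and F4/80 is the adhesion receptor encoded by Adgre1. CD11c is an integrin subunit carried by dendritic cells and also by some macrophages, monocytes and other leukocytes. Resident macrophages of connective tissue with much CD206 are known for taking up glycoproteins, haemoglobin complexes and dying cells, and for recycling iron. Dendritic cells are known for migrating to lymph nodes and presenting antigen to T cells. Repeated painting of a mucosa with a contact sensitiser serves as a model of local immune sensitisation or tolerance.

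Levels are log2 intensities relative to the array's 75th percentile, so a gene at 0 is as bright as that percentile. The share of spots well above background was 46.6% and 44.6% for Fr1, 52.0% and 46.5% for Fr3, and 0 spots were saturated. All 4 arrays lay on 1 slide. Differences are given as mean ± SE of the limma fit, with means from 2 arrays per fraction, and positive for the fraction that is called higher. The spread in that fit was estimated over all 6 arrays, the third fraction included. P-values therefore measure only the spread between these few arrays. In sorted cells as in any bulk sample, fewer cells that use a gene and less RNA per cell cannot be told apart.

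A single gene, Gm2042, passed an adjusted p of 0.05 over all genes (0.00522% of those tested). At an unadjusted p under 0.05, 547 genes (2.86%) were higher in Fr1 and 1138 (5.94%) in Fr3. A gene is called separated below when the lowest array of one fraction lay at least 1 log2 unit above the highest array of the other. By this measure 317 genes (1.66%) were separated toward Fr1 and 779 (4.07%) toward Fr3. So 67.5% of the genes with an unadjusted p under 0.05 and 71.1% of the separated genes were higher in Fr3. With normexp background correction these shares were 81.2% and 85.5%. The count of called genes rested on single arrays. Without Fr3 replicate 1 it was 1568, of which 1379 were higher in Fr1, with a median probe T content of 40%, and without Fr3 replicate 2 it was 3. Without Fr1 replicate 1 or Fr1 replicate 2 it was 0. Of the genes taken, 14204 were above background on all 4 arrays. A further 2221 entered through Fr1 alone and 2728 through Fr3 alone, and these had to be dimmer in the other fraction on at least 1 array. For a gene dim in both replicates of a fraction, meaning not well above background, only a bound can be given, written "at least N-fold". The bound compares the mean of the bright fraction with, per dim array, its own signal or the lowest signal well above background there, whichever is higher.

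**Figure D1:**
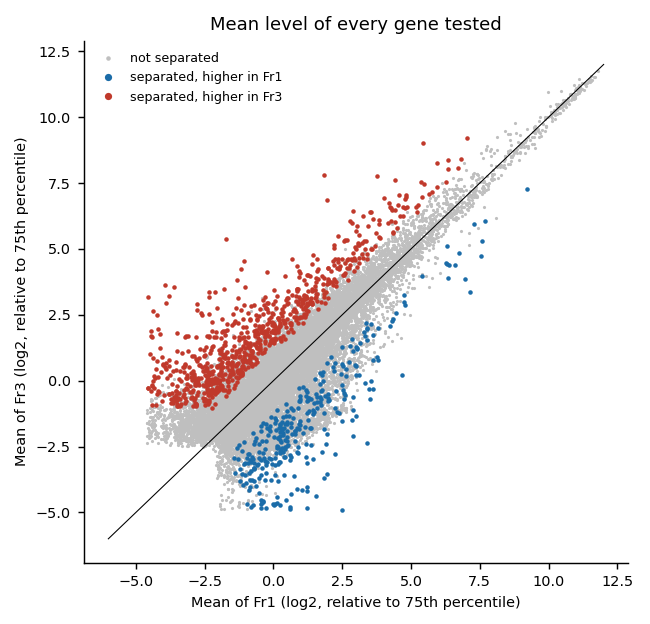
Mean level of each of the 19153 genes in Fr1 (x axis) and Fr3 (y axis), as log2 intensity relative to the 75th percentile, 2 arrays each. Blue points are the 317 genes separated toward Fr1, red points the 779 separated toward Fr3, grey points the rest, and the line marks equal levels.

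The base composition of the probes moved with the differences between replicates. A probe here is a 60-base DNA oligomer, and the share of T in it is given in percent. Over genes with at most 15% T in the probe, the median difference of Fr3 replicate 1 minus replicate 2 was −0.70, and over genes with more than 45% T it was 2.23. The same medians ran from −0.48 to 0.90 in Fr1. For Fr1 minus Fr3 they ran from −0.12 to 1.54. The Fr3 replicates correlated with r = 0.899 across genes with probes up to 30% T and with r = 0.746 across the rest, and the Fr1 replicates with r = 0.907 and 0.890 (Pearson r over genes, which do not count as independent replicates). In both fractions replicate 2 thus read lower than replicate 1 at the T-richest probes, by more in Fr3, and 7693 genes (40.2%) were represented by a probe with over 30% T. For 2260 genes the T-poorest and T-richest probe differed by 10 points or more, and in 54.4% of these both probes gave the same sign of Fr1 minus Fr3. The percentage of T is therefore given for genes on which results turn, and its part in those results was not tested.

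**Figure D2:**
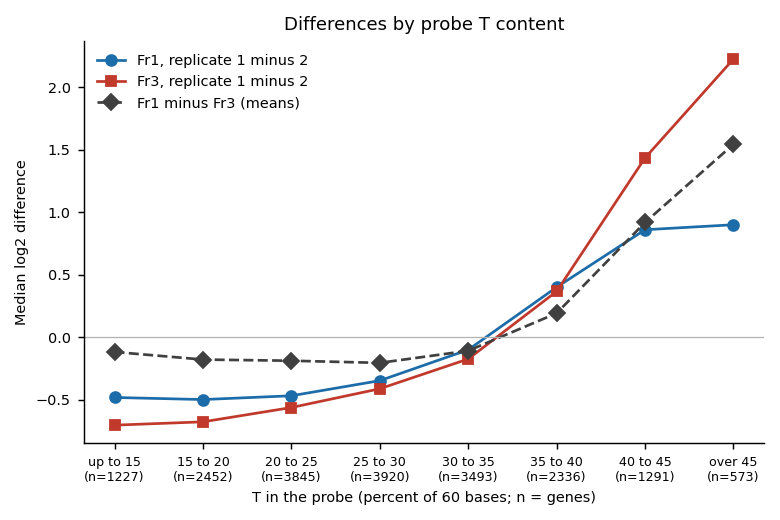
Median log2 difference (y axis) over genes grouped by the percentage of T in their probe (x axis, number of genes in brackets). The lines show replicate 1 minus replicate 2 of Fr1 (blue) and Fr3 (red), and Fr1 minus Fr3 (dashed). The Fr3 line runs from −0.70 to 2.23 and the dashed line from −0.12 to 1.54.

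The following stretches are the first 30 bases, 5′ to 3′, of probe pairs of the same gene, with runs of 2 or more T in capitals. They are shown because the probes of each pair differ in T over their 60 bases. In the stretches shown, the F13a1 probes hold 13 and 11 T, and differ little. F13a1 has probes with 33.3% T (chr13:36959214-36959273, minus strand, mm9) and 25% T (chr13:37063829-37063888, minus strand). Siglecf has probes with 41.7% T (chr7:50614417-50614476, plus strand) and 21.7% T (chr7:50614768-50614827, plus strand). Zeb2 has probes with 26.7% T (chr2:44844068-44844127, minus strand) and 41.7% T (chr2:44842774-44842833, minus strand).
F13a1, 33.3% T: ctggTTTacTTctaagtcaTTgataggTTc
F13a1, 25% T: ctgaatgacaTTggagtgataTTTTatggg
Siglecf, 41.7% T: tcaaggagaaagtgtagtgTTTaTTgTTga
Siglecf, 21.7% T: ggccagcaaacatacaagaaggtaatctca
Zeb2, 26.7% T: acgaggaagacaatatggaagatggcatgg
Zeb2, 41.7% T: ctgtaTTTTcgactgaaaaTTccacTTTct
The T-poor F13a1 probe read 2.25 and 2.67 in Fr3 and was dim in Fr1. The T-poor Siglecf probe read 2.46 and 2.63 in Fr1 against −5.17 and −0.16 in Fr3. Both pairs had the same sign on both probes. The T-rich Zeb2 probe read 2.48 and 1.56 in Fr1 and 3.47 and 1.55 in Fr3. Its mean was also higher in Fr3, as with the T-poor Zeb2 probe, but the fractions overlapped. Of the 5 kept Zeb2 probes other than the T-poor one shown, 4 had the opposite sign to it.

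With probes over 30% T left out, 12715 genes remained. In that fit 20 genes were called toward Fr1 (0.157%) and 36 toward Fr3 (0.283%) at limma's adjusted p of 0.05. These 56 genes are named below as called with T-poor probes. Of the 56, 55 were separated, 42 were not well above background on either array of the lower fraction and 7 were above background on all 4 arrays. The 42 entered through the brighter fraction alone, and their adjusted p rests on readings at background in the other. It adds no support beyond the bound. For 46 of the 56 the probe was the same as in the fit on all probes. Without Fr1 replicate 1, 15 genes were called in the same fit, 8 of them among the 56. Without Fr1 replicate 2, 11 were called, again 8 of them among the 56. Without Fr3 replicate 1 the count was 0, with 376 genes higher in Fr1 and 890 in Fr3 at an unadjusted p under 0.05, and without Fr3 replicate 2 it was 0, with 431 and 630. All 56 kept their sign under each of these. With the replicate number as a block 0 genes were called, with 437 higher in Fr1 and 1212 in Fr3 at an unadjusted p under 0.05, so each such call below holds only without the block. With normexp background correction 29 genes were called, of which 6 were among the 56.

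The sort markers checked the labels. Mrc1, which encodes CD206 (38.3% T), was at 3.78 and 2.67 on the Fr3 arrays and not well above background on the Fr1 arrays, at −4.09 and −3.50. Itgax, which encodes CD11c (31.7% T), was at 2.71 and 2.35 in Fr1 and at 0.20 and 0.95 in Fr3. Both genes ran in the labelled direction with no overlap. Adgre1 (43.3% T), which encodes F4/80, was at 4.49 and 4.39 in Fr1 and at 5.46 and 5.32 in Fr3, and its other probe, with T-poor sequence, differed by 0.69 in favour of Fr3 (limma adjusted p = 0.878). Fr1 was not sorted on F4/80, and both fractions carried this transcript.

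Genes of CD206-high tissue macrophages were among those with the widest gaps toward Fr3. The largest gaps toward Fr3 belonged to Pf4, F13a1, Gm2042, Hal, Cd209f, Folr2, Muc5b, Mrc1 and Stard8, in that order. Pf4 encodes the chemokine platelet factor 4 and was at 5.76 and 4.95 in Fr3 against −1.48 and −1.93 in Fr1, where 1 array was above background. F13a1 encodes the A subunit of coagulation factor XIII, a transglutaminase that crosslinks fibrin, and was at 8.19 and 7.44 in Fr3 against 1.80 and 1.90 in Fr1. Its difference was 5.97 ± 0.57, or 62.6-fold (limma adjusted p = 0.0552), and its T-poor probe was called (adjusted p = 0.00912).

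Hal encodes histidine ammonia-lyase, which converts histidine to urocanate, and was at 4.11 and 2.96 in Fr3 against background in Fr1, at least 55.7-fold. Cd209f, a C-type lectin gene of the DC-SIGN family, was at 4.33 and 2.93 in Fr3 against background in Fr1, at least 59.5-fold. Both were called with T-poor probes (adjusted p = 0.00912 each), on Fr1 readings at background, and entered through Fr3 alone. Cbr2, a carbonyl reductase gene, was at 2.55 and 3.38 in Fr3, at least 37.4-fold above Fr1, and was called in the same way (adjusted p = 0.0227). Folr2, which encodes a folate receptor, was at 3.91 and 3.08 against −1.75 and −1.85, and Lyve1, a hyaluronan receptor gene, at 3.37 and 1.89 against background.

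Gm2042, a predicted gene, was at 3.12 and 3.25 in Fr3 and at background in Fr1, at least 43.6-fold (33.3% T, adjusted p = 0.0313). Its call was lost with normexp (adjusted p = 0.062), with no filter on dim probes (0.0669), with the 4 arrays alone or without either array of the third fraction (0.128 each) and with the replicate block (0.165). It was also lost without Fr1 replicate 1 (0.314) and without Fr1 replicate 2 (0.484). Muc5b encodes a gel-forming mucin of mucous glands rather than a macrophage product. It was at 3.33 and 3.04 in Fr3 against −2.91 and −1.79 in Fr1 and was called with a T-poor probe (adjusted p = 0.0289). Cyp2f2, a cytochrome P450 gene best known from airway epithelium, was called in Fr3 as well, with arrays far apart at 0.63 and 3.30. Whether RNA of other cells has a part in these levels was not tested.

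The list of CD206-high resident macrophage genes held 28 genes, all on the array. Of these, 27 were kept and 16 were above background on all 4 arrays. The kept members had a median Fr1 minus Fr3 of −4.22, against −0.07 over all genes. The filter fixed part of this, since 16 members were above background in both fractions, and over these the median was −2.76. With normexp background correction the median over all 27 kept members was −2.45. Of the 27 kept members, 20 were separated toward Fr3 and 0 toward Fr1. With probes above background on all 4 arrays, 9 of 16 were separated toward Fr3, beside 490 of 14349 over all genes. Marco, a scavenger receptor gene, was the member not above background in either fraction. The median levels of the kept members were 3.67 and 2.67 on the Fr3 arrays and −0.76 and −1.15 on the Fr1 arrays. Mrc1 is on this list and was also a sort marker. The list was chosen with earlier results of these data known, so its counts and medians are a description and no test.

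Endocytic and scavenger receptors made up much of it. Cd163, the receptor for haemoglobin bound to haptoglobin, was at 7.05 and 6.68 in Fr3 against 2.63 and 1.28 in Fr1, and was called with a T-poor probe (adjusted p = 0.0345). Stab1, a receptor for modified lipoproteins and dying cells, was at 2.10 and 2.57 against −2.21 and −1.56. Vsig4, a complement receptor of tissue macrophages, was at 0.53 and 3.25 in Fr3 and at background in Fr1, at least 17.8-fold. Fcna, which encodes the lectin ficolin A, and Fcgrt, the neonatal Fc receptor that recycles IgG, were called with T-poor probes too.

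Secreted products were also on the list. Selenop, the selenium transport protein gene, was at 8.02 and 7.52 in Fr3 and at 4.0 and 3.50 in Fr1, so it was well above background in both (difference 4.02 ± 0.68, called with a T-poor probe at adjusted p = 0.0467). Igf1, a growth factor gene, was at 3.72 and 2.41 against −0.76 and 0.00. Gas6, a bridging ligand between dying cells and phagocytes, was at 4.39 and 3.80 against 0.72 and 1.21. A few members did not separate. Timd4, a phosphatidylserine receptor gene, was at 0.86 and −1.29 in Fr3 and −0.70 and −1.17 in Fr1. Colec12, a scavenger receptor gene, was at 4.01 and 4.44 in Fr3 and 4.21 and 4.56 in Fr1.

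The list of macrophage core genes, common to macrophages of many tissues, held 25 genes, of which 21 were kept, all above background on the 4 arrays. Of these, 9 were separated toward Fr3 and 0 toward Fr1. They were Selenop, Glul, Trf, Abca1, Cd68, Myo7a, Ctsd, C1qc and Csf1r. Csf1r, the receptor for the macrophage growth factor CSF1, was at 7.21 and 6.76 in Fr3 and at 5.46 and 5.34 in Fr1. Cd68, a lysosomal membrane glycoprotein gene, was at 5.08 and 5.99 against 2.95 and 3.28. The other 12 included Cd14, the lipopolysaccharide coreceptor gene, with levels of 3.41 and 3.50 in Fr1 and 3.36 and 3.56 in Fr3. Aif1 (4.70 and 4.62 in Fr1, 5.15 and 4.71 in Fr3) and C1qb (1.94 and 2.76 against 2.36 and 3.09) overlapped or nearly so. Core macrophage transcripts were thus measurable in both fractions, and Mertk, Camk1, Pla2g15 and Arsg were not above background in either.

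Genes of iron and haem handling were among those with the highest share separated toward Fr3. Macrophages break down haem from haemoglobin and export or store the iron. Of 21 listed genes 18 were kept, 15 of them above background on all 4 arrays. Of the kept members 9 were separated toward Fr3 and 1 toward Fr1, with a median Fr1 minus Fr3 of −2.02. With probes above background on all 4 arrays, where another probe could stand in, 6 of 16 were separated toward Fr3.

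The members covered uptake, breakdown and export. Beside Cd163 on the uptake side, Tfrc, the transferrin receptor gene, was at 2.94 and 2.85 in Fr3 against 1.13 and −0.14 in Fr1. Hmox1, which encodes the haem-degrading enzyme haem oxygenase 1, was at 6.45 and 5.66 against 3.97 and 1.62. Blvra, the gene of biliverdin reductase, the next enzyme in that path, was at 1.35 and 1.74 against −1.67 and −0.85.

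Slc40a1 encodes ferroportin, the known cellular iron exporter. It was at −0.14 and −0.38 in Fr3 and at background in Fr1, at least 4.0-fold, and was called with a T-poor probe (adjusted p = 0.0326). Cp encodes ceruloplasmin, the ferroxidase that acts with ferroportin. It was at 2.75 and 2.27 in Fr3 against background, at least 27.3-fold (adjusted p = 0.0467 with T-poor probes). Trf, the transferrin gene, was at 6.02 and 5.96 in Fr3 against 2.48 and 3.25. Storage genes were closer. Ftl1, the ferritin light chain gene, was at 4.79 and 5.29 against 3.25 and 3.83, short of a 1 log2 gap, and Fth1, the heavy chain gene (38.3% T), was at 5.80 and 5.42 in Fr3 and 5.90 and 6.05 in Fr1. Hp, the haptoglobin gene, ran the other way, at 1.67 and 1.73 in Fr1 against −0.71 and 0.49 in Fr3.

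**Figure D3:**
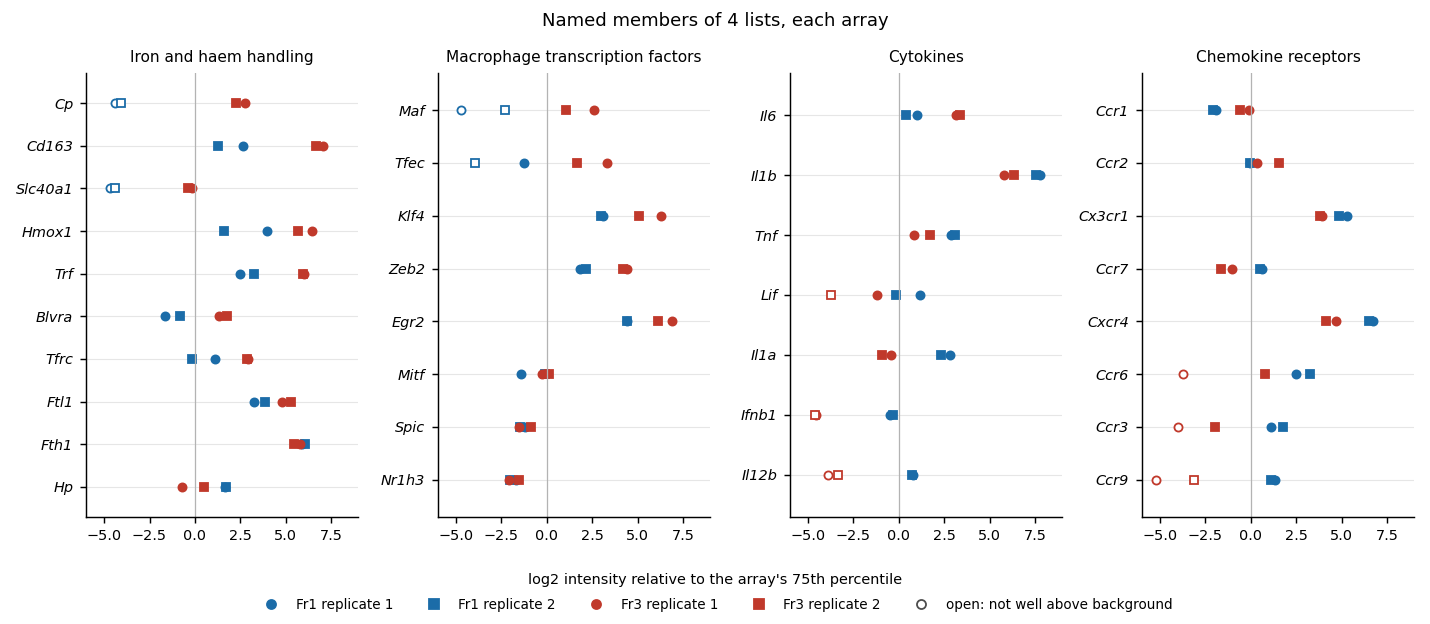
Level on each array (x axis, log2 intensity relative to the 75th percentile) of the kept members of 4 lists that are named in the text, ordered from the largest difference toward Fr3 (top) to the largest toward Fr1 (bottom), colours and symbols by fraction and replicate. Red points lie to the right of blue in Slc40a1, Cp and Cd163, and blue to the right of red in Ccr9, Cxcr4, Il12b and Il1a.

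Among 20 macrophage transcription factor genes, all kept and 15 above background on all 4 arrays, 6 were separated toward Fr3 and 0 toward Fr1, and with probes above background on all 4 arrays 4 of 15 were. Maf, which encodes a factor of macrophage differentiation, was at 2.58 and 1.06 in Fr3 and at background in Fr1, at least 17.0-fold. Klf4 was at 6.26 and 5.08 in Fr3 against 3.06 and 2.95, and Egr2 at 6.90 and 6.09 against 4.43 and 4.40. Tfec, a gene of the Mitf family, was at 3.32 and 1.67 against −1.24 and −3.99. Zeb2 was separated by its brightest probe (4.43 and 4.16 against 1.84 and 2.14), but 4 of its 5 other kept probes had the opposite sign. Spic and Nr1h3, factors tied to iron recycling and to lipid sensing, differed by 0.12 ± 0.55 and 0.04 ± 0.61 in favour of Fr3.

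Complement, the clearance of dying cells, lipids, lysosomes and Fc receptors also had members separated toward Fr3. Of 23 complement genes 21 were kept. Of these, 7 were separated toward Fr3 (among them Vsig4, C1ra, Cfp, C1qc, Cfb and C3ar1) and 1 toward Fr1, which was Itgax, a sort marker that is also a complement receptor subunit. With probes above background on all 4 arrays the counts were 6 and 1 of 18. Of the 3 C1q chains, C1qc was at 3.88 and 3.70 in Fr3 against 2.01 and 1.97, while C1qa and C1qb differed by 0.78 ± 1.13 and 0.38 ± 0.65. Of 24 genes of apoptotic cell uptake 21 were kept, and 5 were separated toward Fr3 (Stab1, Gas6, Pros1, Anxa1 and Dock1) and 2 toward Fr1 (Tgm2 and Mfge8). Tgm2, a tissue transglutaminase gene, was at 3.40 and 3.84 in Fr1 against −0.21 and −0.39. Mfge8, which encodes a phosphatidylserine-binding bridge, was at 4.08 and 4.40 against 1.69 and 2.50. Different bridging molecules therefore stood on either side.

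Of 23 genes of lipid uptake and efflux 20 were kept, and 5 were separated toward Fr3 and 0 toward Fr1. Apoe, the apolipoprotein E gene, was at 8.48 and 8.28 against 6.31 and 6.37, and Plin2, the lipid droplet coat gene, at 1.45 and 2.21 against −0.75 and −1.15. Of 29 lysosome genes 28 were on the array and 27 were kept, and 7 were separated toward Fr3 and 0 toward Fr1. Ctsd, the gene of the protease cathepsin D, was at 3.19 and 3.30 against 0.94 and 1.27, and Atp6v0d2, a proton pump subunit gene, at 1.09 and −0.08 against background (called with a T-poor probe, adjusted p = 0.0345). Ctss, the gene of the protease cathepsin S, was level at 8.31 and 8.52 in Fr1 and 8.54 and 8.52 in Fr3. Of 14 Fc receptor genes 10 were kept, and 4 were separated toward Fr3 and 0 toward Fr1. They were Fcgrt, Fcrls, the inhibitory IgG receptor gene Fcgr2b (2.50 and 1.95 against −0.50 and 0.17) and the activating receptor gene Fcgr3 (3.67 and 4.11 against 1.69 and 1.37). Fcgr4, another activating receptor gene, was at 4.04 and 4.07 in Fr1 and 3.06 and 2.91 in Fr3.

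Of 22 genes used to describe alternative activation of macrophages, a list that also holds receptors, signalling genes and the classical activation gene Nos2, 16 were kept. Of these, 6 were separated toward Fr3 and 1, Tgm2, toward Fr1. Retnla, which encodes the secreted protein RELM alpha, was at 9.11 and 8.90 against 5.69 and 5.19, and Ccl24, a chemokine gene, at 3.67 and 2.59 against −0.70 and −1.88 (called with a T-poor probe, adjusted p = 0.0345). Arg1 and Chil3, 2 widely used marker genes of this state, were not above background in either fraction. Among 31 growth factor and matrix enzyme genes, 23 were kept, with 8 separated toward Fr3 and 2 toward Fr1. Timp2, a metalloprotease inhibitor gene, was at 4.25 and 4.03 in Fr3 against −0.33 and −0.11. Mmp12, the macrophage elastase gene, stood on the other side at 7.48 and 7.67 in Fr1 against 5.31 and 5.30. Vegfa, an angiogenic factor gene, was at 1.73 and 1.62 in Fr1 against 0.34 and 0.28.

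Chemokine ligand genes were separated in both directions. Of 29 ligand genes 25 were kept, and 7 were separated toward Fr3 (Pf4, Ccl7, Ccl24, Ccl8, Ccl9, Ccl2 and Ccl6) and 2 toward Fr1 (Ccl3 and Ccl4). With probes above background on all 4 arrays the counts were 4 and 2 of 20. Ccl7, which attracts monocytes, was at 3.42 and 2.38 in Fr3 against background, at least 35.8-fold, and Ccl2, with the same role, at 6.19 and 5.53 against 3.06 and 3.85. Ccl6 was at 8.21 and 8.29 against 5.90 and 6.02. Ccl3, an inflammatory chemokine gene, was at 6.43 and 6.33 in Fr1 against 4.26 and 4.52 in Fr3, and Ccl4, a related gene, at 9.43 and 9.02 against 7.39 and 7.18.

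Of 22 chemokine receptor genes 12 were kept, 8 of them above background on all 4 arrays. Of the kept members 5 were separated toward Fr1 and 1, Ccr1, toward Fr3. With probes above background on all 4 arrays the counts were 2 and 1 of 8, beside 158 and 490 of 14349 over all genes. With normexp background correction they were 3 and 0 of 12. Ccr9, a receptor of gut-homing lymphocytes and of some dendritic cells, was at 1.32 and 1.13 in Fr1 against background in Fr3, at least 14.1-fold, and was called with a T-poor probe (adjusted p = 0.0345). Ccr6, the receptor for CCL20, was at 2.48 and 3.24 in Fr1 against −3.74 and 0.79 in Fr3, so the Fr3 arrays lay far apart. Cxcr4, the receptor for CXCL12, was at 6.72 and 6.51 against 4.66 and 4.15. Ccr7, which guides dendritic cells to lymph nodes (40% T), was at 0.64 and 0.51 against −1.04 and −1.64. Cx3cr1, the fractalkine receptor gene, was at 5.28 and 4.86 against 3.91 and 3.82, and Ccr2, the receptor of classical monocytes, at −0.06 and −0.05 in Fr1 and 0.35 and 1.54 in Fr3.

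Most of the cytokine genes that separated did so toward Fr1. Of 25 listed genes 24 were on the array and 18 were kept, 12 of them above background on all 4 arrays. Of the kept members 6 were separated toward Fr1 (Il12b, Ifnb1, Il1a, Lif, Tnf and Il1b) and 1, Il6, toward Fr3. With probes above background on all 4 arrays the counts were 3 and 1 of 12, beside 158 and 490 of 14349 over all genes. With normexp background correction they were 2 and 1 of 18. Il12b encodes the p40 subunit shared by IL-12 and IL-23. It was at 0.76 and 0.71 in Fr1 against background in Fr3, and was called with a T-poor probe (adjusted p = 0.0345). Ifnb1, the interferon beta gene, was at −0.49 and −0.33 in Fr1, at least 4.52-fold above Fr3, with the same adjusted p.

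Il1b, the gene of the inflammatory cytokine IL-1 beta, was at 7.79 and 7.57 in Fr1 against 5.79 and 6.34 in Fr3, and Il1a at 2.84 and 2.33 against −0.43 and −0.92. Tnf was at 2.86 and 3.11 against 0.83 and 1.70. Il6, an inducer of the acute phase response (38.3% T), was at 0.97 and 0.37 in Fr1 against 3.14 and 3.38 in Fr3. Il10, Il15, Il23a and Tgfb1 were not above background in either fraction.

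The widest gaps toward Fr1 belonged to genes of mixed function. Serpinb2, which encodes plasminogen activator inhibitor 2, was at 3.67 and 3.16 in Fr1 against −2.26 and −2.51 in Fr3, a difference of 5.80 ± 0.53 (called with a T-poor probe, adjusted p = 0.00912). Tlr12, a Toll-like receptor gene for a profilin of parasites, was at 2.51 and 2.45 in Fr1 against background in Fr3, at least 33.5-fold (adjusted p = 0.0128 with T-poor probes). Havcr2, which encodes the inhibitory receptor TIM-3, was at 3.05 and 2.70 against −2.64 and −1.54 (adjusted p = 0.0326). F5, the coagulation factor V gene, was at 1.19 and 2.71 against background, at least 23.2-fold (adjusted p = 0.0274).

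With F13a1 and Pf4 in Fr3, and Serpinb2 and F5 in Fr1, coagulation and fibrinolysis genes stood on both sides. Of 20 listed genes 18 were kept, and 4 were separated toward Fr1 (also Procr and Plau) and 3 toward Fr3 (also Pros1). Plau encodes the protease that Serpinb2 inhibits, and was at 7.28 on both Fr1 arrays against 5.77 and 6.14. Other genes with wide gaps toward Fr1 were Mreg, Tbc1d8, Gngt2, Sema4d, Cyfip2 and Adamdec1. Sema4d, a semaphorin gene of leukocytes, was at 3.43 and 3.68 against −0.04 and −0.01, with close replicates in both fractions. Adamdec1, a metalloprotease gene of mucosal phagocytes (38.3% T), was at 2.49 and 2.52 against −0.60 and −2.49. Kynu, which encodes kynureninase of tryptophan breakdown, and Gpr171, a G protein-coupled receptor gene, were called in Fr1 with T-poor probes, at least 12.3-fold and 9.42-fold above Fr3. The Kynu call came from a probe other than its brightest, which was not called (limma adjusted p = 0.582).

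Lists for dendritic cells gave a mixed picture. Of 23 genes shared by conventional dendritic cells 21 were kept and 16 were above background on all 4 arrays. Of the kept members 6 were separated toward Fr1 (Btla, Cd207, Kit, Itgax, Bri3bp and Ap1s3) and 0 toward Fr3. With probes above background on all 4 arrays 3 of 16 were separated toward Fr1, beside 158 of 14349 over all genes. With normexp background correction 0 were separated toward Fr1 and 1 toward Fr3, beside 47 and 278 over all genes. Itgax was a sort marker. With probes up to 30% T, 12 members remained and 1 was separated toward Fr1, and the median Fr1 minus Fr3 was 0.12, against 0.95 with all probes. Btla, an inhibitory receptor gene (38.3% T), was at 0.22 and −0.14 in Fr1 against background, at least 6.20-fold. Zbtb46, a defining factor of conventional dendritic cells, was at 2.31 and 1.52 in Fr1 and at 1.32 and −3.72 in Fr3, with 46.7% T in its probe. Flt3, their growth factor receptor gene, was low in both, at −1.88 and −1.16 in Fr1 and −1.70 and −1.38 in Fr3.

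Of 18 genes of the cross-presenting subset cDC1, 12 were kept and 2 were separated toward Fr1. They were Clec9a, a receptor for dead cells (−1.24 and −0.28, at least 3.55-fold above Fr3), and Irf8, a factor needed by that subset (1.33 and 0.57 against −0.86 and −0.70). Xcr1 and Batf3, which define the subset, were not above background in either fraction. With normexp background correction 0 of the 12 kept genes were separated. Of 17 genes of the subset cDC2, 15 were kept, and 4 were separated toward Fr3 (Clec10a, Klf4, Mgl2 and Cd1d1) and 0 toward Fr1. Clec10a and Mgl2, which encode galactose-binding lectins, are also on the resident macrophage list, where they were at 6.89 and 5.58 and at 6.93 and 6.58 in Fr3. In Fr1 they were at 4.15 and 2.36 and at 4.17 and 4.26.

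Of 13 genes of Langerhans cells, the epithelial phagocytes, 10 were kept, and 3 were separated toward Fr1 and 1 toward Fr3. Cd207, which encodes langerin, was at −0.16 and 0.47 in Fr1 against −4.18 and −2.14, and Lifr, a cytokine receptor gene, at 3.91 and 4.05 in Fr3 against 0.85 and −0.03 (called with a T-poor probe, adjusted p = 0.0467). Epcam, an epithelial adhesion gene of these cells, overlapped, and Cdh1 was not above background.

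Genes of antigen presentation by MHC class II were separated at shares near those of all genes. Of 19 genes 16 were kept, and 0 were separated toward Fr1 and 1, the protease gene Lgmn, toward Fr3. These are 0% and 6.25% of the kept members, against 1.66% and 4.07% over all genes. Over the kept members the median Fr1 minus Fr3 was 0.09. Cd74, the invariant chain gene, was at 6.97 and 7.10 in Fr1 and 6.15 and 7.19 in Fr3, a difference of 0.37 ± 0.71. H2-Ab1, a class II beta chain gene, was at 7.22 and 7.51 against 6.32 and 7.64. Another beta chain gene, H2-Eb1 (38.3% T), did not overlap, at 4.93 and 4.73 in Fr1 against 3.60 and 4.01 in Fr3. H2-DMb2, a peptide loading gene, did not overlap in the other direction, at 2.74 and 3.48 in Fr1 against 4.14 and 5.28 in Fr3. Ciita, the class II transactivator gene, was at 2.01 and 2.46 against 1.05 and 1.53. The SE of the last was 0.87 in the fit over all 6 arrays, beside a difference of 0.95. Its Fr1 and Fr3 arrays did not overlap.

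Of 25 costimulatory and coinhibitory genes 17 were kept, and 2, Btla and Havcr2, were separated toward Fr1. Cd86 was at 2.69 and 2.91 in Fr1 and 2.38 and 2.63 in Fr3, and Cd83 at 2.65 and 2.75 and at 3.43 and 3.18. Of 26 genes of mature migratory dendritic cells 21 were kept, and 2, Il12b and Ccr7, were separated toward Fr1. With normexp background correction 0 of these 21 were separated. Of 21 dendritic cell transcription factor genes 19 were kept, and Spib and Irf8 were separated toward Fr1 and Batf toward Fr3. With normexp background correction 0 of these 19 were separated. Spib, an Ets factor gene, was at 2.72 and 0.37 in Fr1 against background, at least 17.6-fold, and Batf at 0.22 and 0.40 in Fr3 against −2.0 and −3.95. Of 23 genes associated with tolerance, 22 were on the array and 14 were kept. Havcr2 and the integrin gene Itgb8 were separated toward Fr1, and Aldh1a2, a retinoic acid synthesis gene, toward Fr3 at −0.02 and 1.03, at least 6.80-fold above Fr1. Itgb8 (41.7% T) was at 1.57 and 1.18 in Fr1 against 0.13 and −3.69 in Fr3, so its Fr3 arrays lay far apart.

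Among 24 pattern recognition receptor genes 19 were kept. Tlr12 and Nod2 were separated toward Fr1 and Tlr8 toward Fr3. Nod2 (46.7% T) was at −0.49 and −0.33 in Fr1 against −2.02 and −2.58 in Fr3, a difference of 1.89. Over all genes with more than 45% T in the probe the median Fr1 minus Fr3 was 1.54. Tlr2 (0.56 and 0.46 in Fr1, −0.40 and 0.43 in Fr3) and Tlr4 (−0.15 and 0.89 against −0.46 and 0.29) overlapped or differed by less than their spread. Tlr8 (35% T) was at 2.08 and 1.24 in Fr3 against −1.15 and −3.51 in Fr1, but its other kept probe (23.3% T) differed by 0.13 ± 0.57 (limma adjusted p = 0.998).

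**Figure D4:**
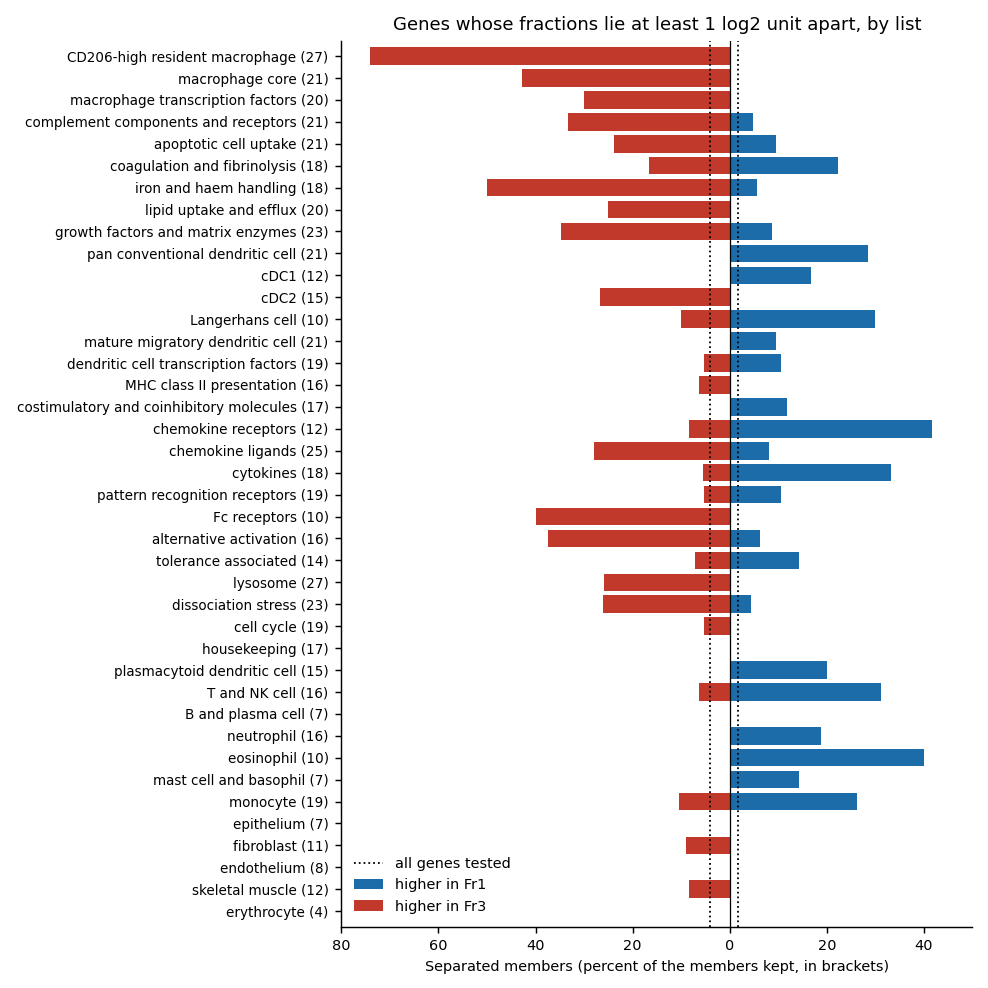
Percentage of kept members (x axis) separated toward Fr3 (red, left) and toward Fr1 (blue, right) in each of 40 lists, with the number kept in brackets and the shares over all genes, 4.07% and 1.66%, as dotted lines. The CD206-high resident macrophage list has 20 of 27 toward Fr3, and the chemokine receptors have 5 of 12 toward Fr1.

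Markers of other cell types were measured beside these groups, and their part in the results was not tested. Of 13 eosinophil genes 10 were kept and 4 were separated toward Fr1. They were Siglecf (2.64 and 3.13 in Fr1 against −0.59 and −0.66 in Fr3), Ccr3 (1.09 and 1.79 against −4.01 and −1.97), Cebpe and the granule protein gene Prg2. Prg2 was at 0.50 and 1.93 in Fr1 against background and was called with a T-poor probe (adjusted p = 0.0345). The summed intensity of the list, in units of the 75th percentile, was 21.9 and 24.7 in Fr1 and 8.82 and 14.8 in Fr3. Epx, the eosinophil peroxidase gene, was not above background in either fraction. Outside this list, the ribonuclease genes Ear12 and Rnase2a (31.7% T each) ran the other way. Ear12 was at 3.70 and 3.00 in Fr3 against −1.25 and −3.46 in Fr1, and Rnase2a at 4.16 and 3.50 against −0.32 and −2.31.

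Of 24 T and NK cell genes 21 were on the array and 16 were kept, and 5 were separated toward Fr1 (among them Gzma, Il2rb, Il7r and Icos) and Cd2 toward Fr3. Gzma, the granzyme A gene, was at 3.14 and 2.65 in Fr1 against −1.25 and −0.94. The defining gene Cd3e was at 0.27 and 0.94 in Fr1 and −0.19 and 0.79 in Fr3, and Cd3d and Cd3g were not above background. The summed intensity was 39.7 and 44.0 in Fr1 and 22.4 and 34.7 in Fr3. Of 20 neutrophil genes 16 were kept and 3 were separated toward Fr1, but 0 with normexp background correction. S100a9 was at 6.70 and 6.82 against 5.45 and 4.27, S100a8 overlapped, and Ly6g and Ltf were not above background. The summed intensity of that list was 257 and 323 in Fr1 and 151.2 and 150.9 in Fr3.

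Of 21 monocyte genes 19 were kept, with 5 separated toward Fr1 and 2, Lyz2 and Fn1, toward Fr3. Ly6c1 and Ly6c2, near-identical neighbours whose probes may not tell them apart, were at 4.76 and 2.84 and at 4.64 and 2.87 in Fr1 and at 0.35 and 1.21 and at 0.37 and 1.45 in Fr3. Lyz2, the lysozyme gene, was at 6.40 and 6.50 in Fr3 against 2.94 and 2.85 in Fr1 (called with a T-poor probe, adjusted p = 0.0386). The summed intensity ranged over 2859 and 3223 in Fr1 and 2517 and 3706 in Fr3. Of 16 plasmacytoid dendritic cell genes 15 were kept, and Ccr9, Spib and Lair1 were separated toward Fr1. Siglech, a defining gene, had near-equal levels of 7.08 to 7.45 on the Fr1 arrays and 6.98 to 7.34 on the Fr3 arrays, from a probe with 11.7% T.

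In the lists of structural cells part of the genes were kept, beside 19153 of 37074 gene names over the whole array. The shares separated over all genes were 1.66% toward Fr1 and 4.07% toward Fr3. Epithelium had 7 of 21 kept and 0 separated in either direction, endothelium 8 of 17 and 0, and erythrocytes 4 of the 11 on the array and 0. Fibroblasts had 11 of 18 kept and 1, Vim, separated toward Fr3. Skeletal muscle had 12 of 19 kept and 1, Tnnc2, separated toward Fr3. The summed intensity of the fibroblast list was 86.3 and 72.6 in Fr1 and 124.9 and 127.4 in Fr3, and Dcn, Lum and Pdgfrb were not above background. That of the muscle list was 30.7 and 33.2 in Fr1 and 43.1 and 49.5 in Fr3, and Ckm, Mb and Des were not above background. B and plasma cells had 7 of 13 genes on the array kept and 0 separated, and mast cells and basophils 7 of 15 with Kit separated toward Fr1.

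Some genes that respond to tissue digestion were separated toward Fr3. Of 23 dissociation stress genes, all kept and 22 above background on all 4 arrays, 6 were separated toward Fr3 (Ier3, Egr2, Jun, Btg2, Dnajb1 and Klf6) and 1, Dusp2, toward Fr1. Jun was at 3.90 and 3.29 in Fr3 against 1.47 and 1.56 in Fr1, and Fos at 3.95 and 2.51 against 2.13 and 2.05. Dusp2, a phosphatase gene, was at 6.35 and 6.27 in Fr1 against 4.43 and 4.46. The median Fr1 minus Fr3 of the list was −1.09. Of 17 housekeeping genes 0 were separated, but their median Fr1 minus Fr3 was −0.75, with Gapdh at 4.84 and 5.64 in Fr3 against 3.98 and 4.32. Of 25 cell cycle genes 19 were kept and 1, Stmn1, was separated, toward Fr3, and Mki67 overlapped at 1.88 and 2.18 in Fr1 and 1.93 and 2.80 in Fr3.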

How the data were processed

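RNA of sorted cells was amplified with the Ovation Pico WTA System V2, labelled with Cy3 and hybridised to 1-colour Agilent arrays, per the labels' protocols. The deposited scanner files hold background-subtracted and detrended intensity values per spot written, per the file headers, by Feature Extraction 11.5.1.1. The authors also deposited a table of log2 values, which correlated with the scanner values and served as an alternative. From the processed intensity, log2 minus each array's 75th percentile was computed over 56605 non-control probes, and 4 probes with outlier flags were left out. Probes well above background on both arrays of Fr1 or of Fr3 were kept, and the brightest per gene was used. Names were updated through RefSeq by accession (32994 probes), symbol (10224) or synonym (523), and the file's name was kept for 12864. Limma 3.58.1 in R 4.3.3 was fitted to all 6 arrays with 3 group means, where the third fraction, CD11c-F4/80+CD206-, adds only to the spread estimate, with Benjamini-Hochberg adjustment. Genes were named by size of gap (15 per direction) and by smallest p (up to 4 per list). The comparison and the 40 gene lists were chosen with earlier results of these data known. Cyp2f2, Kynu, Gpr171 and the list members given as counterexamples were chosen after their values were seen. Alternatives covered background correction, normalization, probe filters, probe T content, arrays in the fit, array weights, the replicate block and leaving out each array. Values of some list members are not reported here, though list counts include them.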

Additional observations from a re-analysis of the deposited data

How the results depend on the processing

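With 2 arrays per fraction the number of called genes moved with the processing, and the causes were not tested except where a setting tests fewer genes. It was 0 with normexp background correction (347 genes higher in Fr1 and 1496 in Fr3 at an unadjusted p under 0.05), 0 with no filter on dim probes (874 and 1453), 0 with the 4 arrays alone (472 and 1099) and 56 with probes over 30% T left out. It was 0 with the replicate block (804 and 1455). Replicate numbers were not taken as pairs. Replicate 1 minus replicate 2 correlated across genes with r = 0.444 between Fr1 and Fr3, which shared a slide. The correlation was 0.135 between Fr1 and the third fraction, which lay on another slide, and 0.0498 between the third fraction and Fr3. These values do not settle whether same-numbered Fr1 and Fr3 arrays are paired. Leaving out 1 array at a time gave 0 to 1568 called genes, and 1203 to 3461 at an unadjusted p under 0.05. Genes separated toward Fr1 numbered 47 with normexp, 158 with probes above background on all 4 arrays and 196 with probes over 30% T left out, and 317 to 2360 without 1 array. Genes separated toward Fr3 numbered 278, 490 and 562 under the same settings, and 779 to 2120 without 1 array, where a gap needs fewer arrays to agree. With probes over 30% T left out, the called genes numbered 215 with the 4 arrays alone, 29 with normexp, 0 with the replicate block (437 and 1212 at an unadjusted p) and, without 1 array, 0 for either Fr3 array, 11 and 15 for the Fr1 arrays. With 25% and 35% T as the limit they numbered 46 and 57, of which 33 and 39 were among the 56. At 35%, 55 of the 56 kept their sign.

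Fr1 minus Fr3 changed sign in some genes, most with small differences. With normexp it was Colec12 −0.049, Nr1h3 0.056, Siglech −0.070 and Spic 0.067, with quantile normalization Aif1 0.0068 and Cd14 0.22, and with the mean of all kept probes Tlr4 −0.40 and Zeb2 0.68. Without 1 array the ranges were C1qb −0.79 to 0.029, Cd14 −0.10 to 0.10, Cd3e −0.19 to 0.80, Cd74 −0.15 to 0.89, Colec12 −0.052 to 0.37, Epcam −0.13 to 0.91, Flt3 −0.34 to 0.39, H2-Ab1 −0.27 to 1.04, Mki67 −0.78 to 0.10, Nos2 −0.71 to 0.54, Nr1h3 −0.30 to 0.21, Siglech −0.077 to 0.29, Spic −0.46 to 0.22, Timd4 −1.79 to 0.36 and Tlr4 −0.065 to 0.98. In all, 2492 of the values for named genes under an alternative kept their direction and side of the threshold, 88 passed it in addition, 8 no longer did and 30 changed sign. Intensity above background limits every fold given as a lower bound.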
